A study of Homo sapiens with 12 samples.

Results

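The DNA replication machinery was examined through 39 genes, chosen by gene symbol with earlier results of these data known. They encode proteins that mark and open replication origins, copy the DNA and supply its nucleotides. All 39 were found among the 58735 genes of the deposited count table, and all 39 passed the filter on low counts, which left 16702 genes for testing. RNA was sequenced from Beas-2b, an immortalized human bronchial epithelial cell line, in 12 libraries that formed 4 groups of 3 biological replicates. ANT1 knockout (KO) cells, CRISPR knockout clones for SLC25A4, were grown with bleomycin or in control medium. Wild type (WT) cells were grown in the same 2 ways. SLC25A4 encodes ANT1, a mitochondrial carrier that swaps cytosolic ADP for ATP made in the organelle, and bleomycin breaks DNA. Bleomycin was given at 10 mg/ml over 2 days, as the labels state it, to make the cells senescent. The number of KO clones is not given in the labels, and the knockout and the clone that carries it cannot be told apart.

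Replication is prepared in G1, when the origin recognition complex, CDC6 and CDT1 load the ring-shaped MCM2-7 helicase onto DNA. In S phase the DBF4-CDC7 kinase and several loading factors add CDC45 and the GINS complex, the helicase opens the duplex, and polymerases alpha, delta and epsilon copy both strands under the sliding clamp PCNA. Many of these genes are transcribed by E2F factors when a cell commits to divide, and cells that leave the cycle after DNA damage turn many of them down. PCNA and the ribonucleotide reductase subunit gene RRM2B are also known targets of p53, the transcription factor that DNA damage activates.

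Sequencing depth was 15753944 to 21923695 counted reads a library, and a member gene had between 136 and 13892 reads in a library. SLC25A4 was at 0.952, 0.838 and 1.03 FPKM (fragments scaled to gene length and to library depth) in KO bleomycin libraries, against 3.29, 4.56 and 5.64 FPKM in WT bleomycin libraries. Its level was 1.04, 1.43 and 0.988 FPKM in KO controls, against 4.71, 3.40 and 3.76 FPKM in WT controls, so every KO library lay below every WT library (log2FC of KO over WT -2.26, adjusted p = 0.000904, in bleomycin and -1.78, adjusted p = 0.0111, in control medium). KRT7, KRT8, KRT18 and KRT19, keratins of simple epithelia, were expressed in all 4 groups, while the epithelial markers EPCAM and CDH1 were below 1 FPKM and the basal keratin KRT5 was close to or at 0. Of 5 leukocyte markers CD14 alone exceeded 1 FPKM, and it fell with bleomycin (summed level of the 5 markers 1.38 to 2.81 FPKM in KO bleomycin libraries, against 15.7 to 21.6 FPKM in KO controls, and 0.917 to 1.43 FPKM in WT bleomycin libraries, against 10.4 to 12.5 FPKM in WT controls). PTPRC, which all leukocytes express, was at 0.0463 FPKM or below in every library, and none of 4 endothelial markers passed 1 FPKM in any group. KRT18 and KRT8 fell, and KRT7 and KRT19 rose, with bleomycin in both genotypes, and the part of these shifts in the results was not tested.

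KO control replicate 2 stood apart from the other libraries. Mitochondrially encoded genes took 0.364% of its counts, against 3.86% to 5.13% in the other 11 libraries. It also held 352.5 FPKM of the fibroblast collagen COL1A1, against 56.4 and 71.6 FPKM in the other KO controls, although the fibroblast markers LUM and DCN were at 0 in all KO controls. The 6 fibroblast markers summed to 48.1 to 69.8 FPKM in KO bleomycin libraries, against 56.8 to 354 FPKM in KO controls, and to 58.3 to 61.4 FPKM in WT bleomycin libraries, against 55.3 to 122 FPKM in WT controls, with 2 of 6 above 1 FPKM in each bleomycin group and 1 of 6 in each control group. Their part in the results was not tested. For 24 of the 39 replication genes the level in KO control replicate 2 lay outside the range of the other 11 libraries, above it for 16 and below it for 8. The same count was 13 for WT control replicate 1 and 1 to 8 for each remaining library. The share of all tested genes outside that range was not counted. Over the tested genes, KO control replicate 2 differed from the other KO controls at a chi-square per gene of 110 to 119. Other pairs of replicates were at 2.90 to 17.7. For the 39 genes, its ratio to the mean of the other KO controls ran from 0.356 for PRIM1, the catalytic primase subunit, to 1.80 for GMNN, an inhibitor of helicase loading. The other KO controls differed from each other by at most 1.21-fold over the same genes. The library was kept, since nothing in the labels sets it aside. The counts and many of the values that it moves are given with and without it. KO values given only with all libraries can also depend on it.

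**Figure D1:**
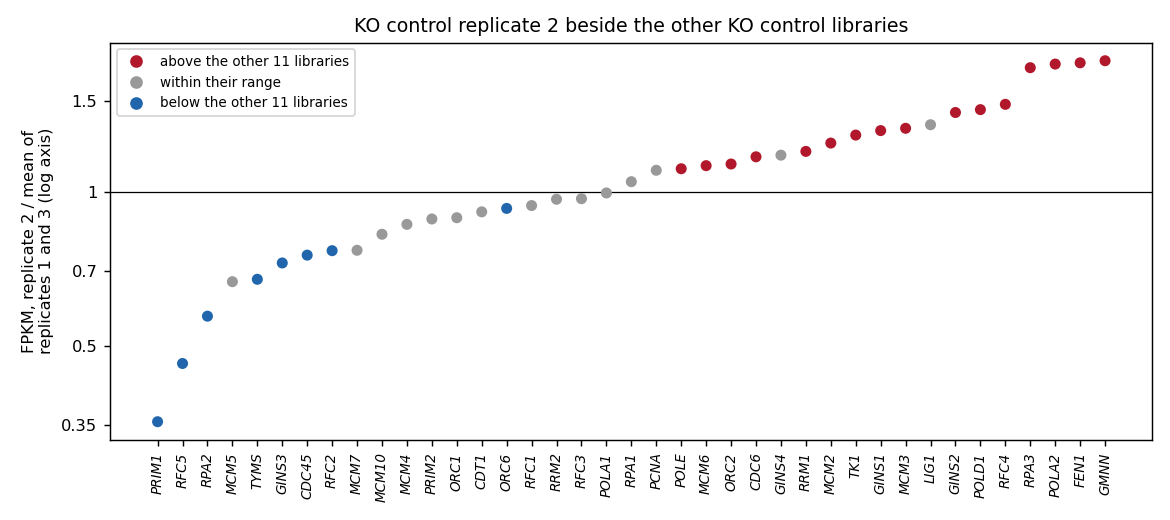
Ratio of the FPKM level in KO control replicate 2 to the mean of KO control replicates 1 and 3 for each of the 39 replication genes (log axis, 1 point a gene), coloured by whether the level lies above, within or below the range of the other 11 libraries. The ratios run from 0.356 (PRIM1) to 1.80 (GMNN), and 24 of the 39 genes lie outside that range.

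Bleomycin lowered a part of the replication machinery and raised a few of its genes, in both genotypes. In KO cells 21 of the 39 genes changed at an adjusted p below 0.05 in edgeR, 5 higher and 16 lower. In WT cells 19 changed, 4 higher and 15 lower. The treatment moved much of the transcriptome: 43.2% of all tested genes were called in KO cells (22.5% higher, 20.7% lower) and 43.5% in WT cells (23.9% higher, 19.6% lower). Members were called at a share near that of all genes, 53.8% in KO cells and 48.7% in WT cells. Lower calls made up 41.0% of members in KO cells and 38.5% in WT cells, above those shares, and higher calls 12.8% and 10.3%, below them. The median log2 fold change (log2FC) of the members was -0.19 in KO cells and -0.23 in WT cells, against 0.00 and 0.02 over all tested genes. In bulk RNA, fewer cells in S phase and less of a transcript per cell cannot be told apart.

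The 2 genotypes changed many of the same genes. Lower in both were 13 members: the helicase genes MCM2, MCM3, MCM4, MCM5 and MCM6, with MCM10, GINS2, ORC2, POLA1, POLD1, RFC1, RPA1 and TK1. Higher in both were 4: PCNA, TYMS, GINS4 and LIG1. ORC6, RFC4, POLE and FEN1 were called in KO cells and not in WT cells, and ORC1 and CDT1 in WT cells and not in KO cells; the test of the difference between genotypes, given further on, called none of these 6. The remaining 16 were called in neither, and no member was called in opposite directions. Without KO control replicate 2 the counts were 24 in KO cells (5 higher, 19 lower), where 48.4% of all tested genes were called (25.6% higher, 22.8% lower), and 27 in WT cells (6 higher, 21 lower), where 56.6% were (29.8% higher, 26.8% lower). FEN1 was then no longer called in KO cells, and every other call was kept. CDC45, MCM7, PRIM1 and RFC5 were added in both genotypes, with CDC6, ORC6, POLE and RRM2 in WT cells.

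**Figure D2:**
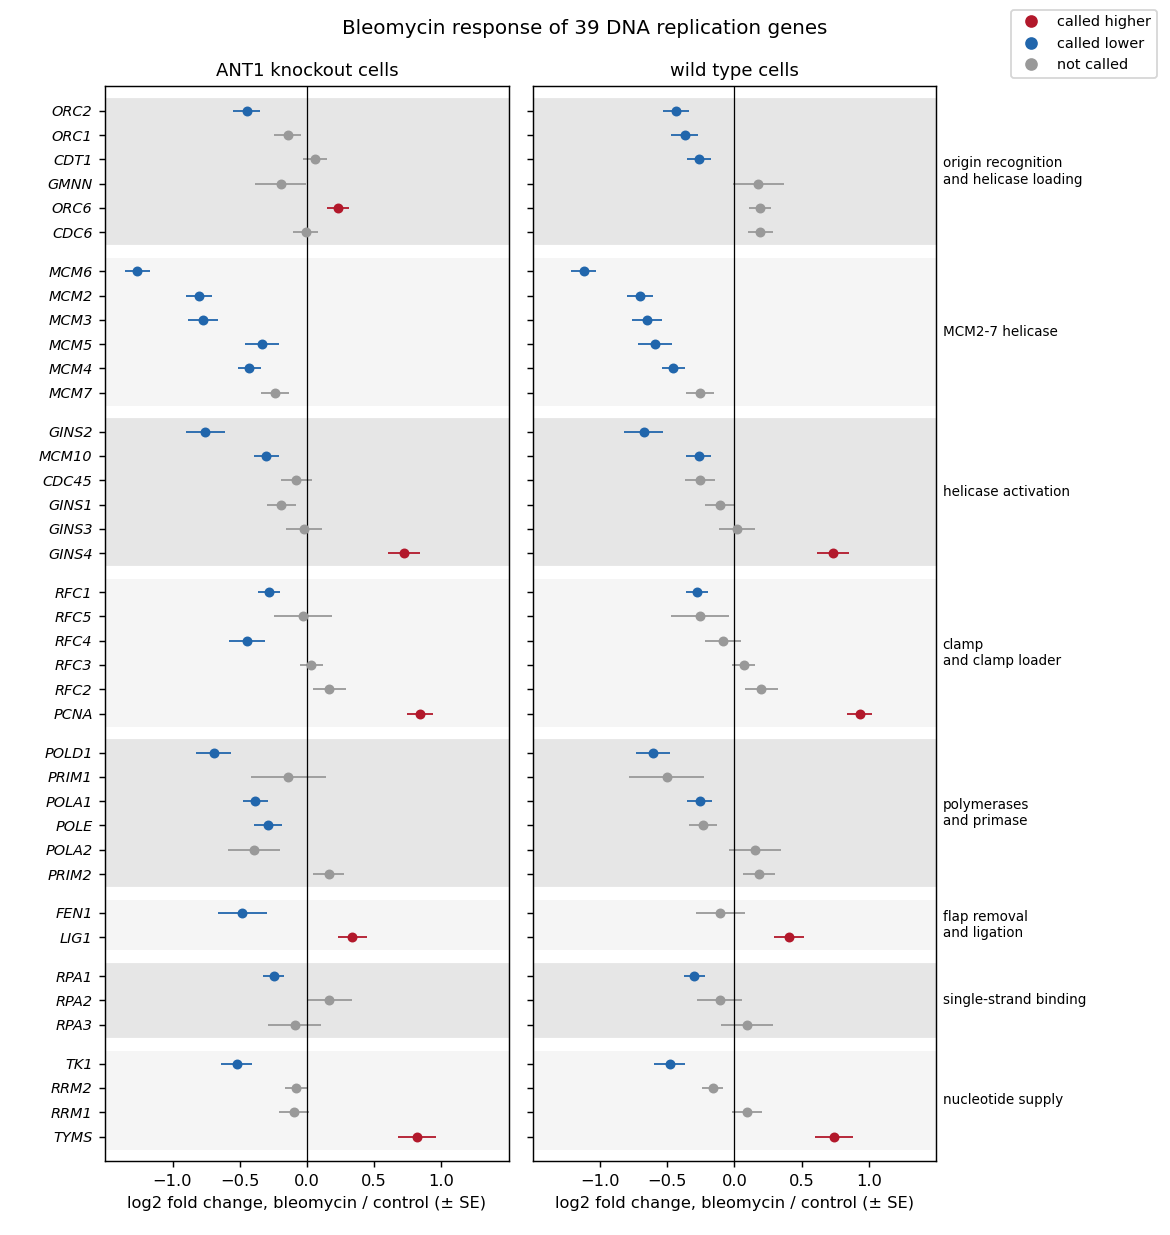
Log2 fold change of bleomycin over control for the 39 replication genes, ordered by role, in KO cells (left) and WT cells (right); points are edgeR estimates, bars are ± 1 SE, and colour marks an adjusted p below 0.05. MCM6 lies lowest in both panels (-1.26 in KO cells, -1.12 in WT cells), and PCNA highest (0.84 in KO cells, 0.93 in WT cells).

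Promoters of 2 helicase genes that fell and of 2 genes that rose are shown, each with a match to one of the E2F letter strings. Each is the RefSeq GRCh38.p14 window from 250 bases before to 50 after the annotated start, read 5′ to 3′ on the gene's strand, and capitals mark matches to the E2F letters TTTCCCGC, TTTGGCGC, TTTCGCGC or TTTGCCGC on either strand. MCM6 (chr2:135876394-135876693, minus strand) and MCM3 (chr6:52284693-52284992, minus strand) fell with bleomycin, while PCNA (chr20:5126573-5126872, minus strand) and TYMS (chr18:657403-657702, plus strand) rose.
MCM6: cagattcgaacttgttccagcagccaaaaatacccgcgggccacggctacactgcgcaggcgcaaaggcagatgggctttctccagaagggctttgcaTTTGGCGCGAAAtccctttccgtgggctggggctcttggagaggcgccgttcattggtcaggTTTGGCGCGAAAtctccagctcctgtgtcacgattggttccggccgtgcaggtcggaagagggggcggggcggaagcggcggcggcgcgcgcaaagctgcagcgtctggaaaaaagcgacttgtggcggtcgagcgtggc
MCM3: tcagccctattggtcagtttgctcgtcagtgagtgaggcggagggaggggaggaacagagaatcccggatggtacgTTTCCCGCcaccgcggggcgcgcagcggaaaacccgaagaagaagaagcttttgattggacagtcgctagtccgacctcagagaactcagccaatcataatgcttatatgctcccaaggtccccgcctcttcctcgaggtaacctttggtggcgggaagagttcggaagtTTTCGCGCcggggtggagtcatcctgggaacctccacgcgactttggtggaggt
PCNA: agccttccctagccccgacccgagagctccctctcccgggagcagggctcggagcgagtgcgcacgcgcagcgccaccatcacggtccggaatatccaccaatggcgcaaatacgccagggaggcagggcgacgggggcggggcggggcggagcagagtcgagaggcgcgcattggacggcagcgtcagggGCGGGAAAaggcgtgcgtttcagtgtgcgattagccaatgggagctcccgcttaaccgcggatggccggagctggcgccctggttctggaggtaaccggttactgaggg
TYMS: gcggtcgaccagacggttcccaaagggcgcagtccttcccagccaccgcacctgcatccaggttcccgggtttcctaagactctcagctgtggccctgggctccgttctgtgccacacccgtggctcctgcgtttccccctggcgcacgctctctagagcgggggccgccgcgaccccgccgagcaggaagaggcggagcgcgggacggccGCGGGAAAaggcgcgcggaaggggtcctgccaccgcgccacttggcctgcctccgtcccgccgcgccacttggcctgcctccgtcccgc
In MCM6 a match on each strand overlapped at both of 2 sites, from -152 to -141 and from -90 to -79 relative to the start. PCNA held 1 match from -59 to -52 and TYMS 1 from -39 to -32, both on the opposite strand. Such letters stood in the windows of 17 of the 34 members that have one in the table used (50%), against 6.44% of the 11156 tested genes with a window. CCAAT was found in 64.7% of members against 42.6% of genes, and TTTGAA, the CHR letters of mitotic genes, in 2.94% against 13.6%. Of the 13 members lower in both genotypes, MCM2, MCM3, MCM6, GINS2 and POLA1 had the E2F letters, and of the 4 higher in both, PCNA, TYMS and LIG1 had them. MCM4, MCM5, GINS4, RPA2 and RPA3 had no window in the table used.

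The MCM2-7 ring, the motor that unwinds DNA at the fork, showed the most uniform change: 5 of its 6 subunit genes fell in each genotype, with a median log2 fold change of -0.60 in KO cells and -0.62 in WT cells. MCM6 (chromosome 2, 135839626 to 135876426, minus strand, GRCh38) had 14.7, 15.0 and 16.4 FPKM in KO bleomycin libraries, against 36.2, 40.0 and 35.0 FPKM in KO controls. It had 15.3, 14.3 and 16.2 FPKM in WT bleomycin libraries, against 36.9, 31.4 and 32.2 FPKM in WT controls. In both genotypes every bleomycin library lay below every control library. MCM6 fell 2.40-fold in KO cells (log2 fold change -1.26, SE 0.09, adjusted p = 2.47e-07) and 2.18-fold in WT cells (log2 fold change -1.12, SE 0.09, adjusted p = 5.83e-07).

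MCM2, which with MCM5 forms the gate through which the ring closes around DNA, had 26.4, 25.2 and 28.7 FPKM in KO bleomycin libraries, against 43.2, 54.1 and 43.8 FPKM in KO controls. It had 25.0, 26.6 and 26.4 FPKM in WT bleomycin libraries, against 44.5, 40.3 and 42.8 FPKM in WT controls. The groups did not overlap, and MCM2 fell 1.75-fold in KO cells (adjusted p = 2.56e-05) and 1.63-fold in WT cells (adjusted p = 6.73e-05). MCM3, the subunit that in yeast contacts ORC and CDC6 during loading, had 44.6, 45.2 and 47.5 FPKM in KO bleomycin libraries, against 73.8, 94.5 and 68.5 FPKM in KO controls. It had 46.2, 45.9 and 44.8 FPKM in WT bleomycin libraries, against 78.7, 68.8 and 68.5 FPKM in WT controls. Again no bleomycin library reached the control range, and the falls were 1.71-fold in KO cells (adjusted p = 0.000101) and 1.57-fold in WT cells (adjusted p = 0.000372). MCM4, a subunit of the catalytic core with MCM6 and MCM7, fell 1.35-fold in KO cells (adjusted p = 0.00141) and 1.37-fold in WT cells (adjusted p = 0.000822), with no overlap between groups.

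MCM5 and MCM7 depended on KO control replicate 2. MCM5 had 18.1, 19.2 and 18.9 FPKM in KO bleomycin libraries, against 26.5, 17.9 and 27.1 FPKM in KO controls. The second control lay with the bleomycin libraries and the other 2 controls above them. MCM5 had 18.4, 17.6 and 18.1 FPKM in WT bleomycin libraries, against 28.0, 27.3 and 26.9 FPKM in WT controls, without overlap. MCM5 fell 1.51-fold in WT cells (adjusted p = 0.00189). In KO cells its log2 fold change was -0.34 (adjusted p = 0.0456), against -0.51 (adjusted p = 1.7e-06) without that library. MCM7 had 73.8, 71.1 and 73.1 FPKM in KO bleomycin libraries, against 94.9, 71.8 and 92.0 FPKM in KO controls. It had 76.5, 77.7 and 78.5 FPKM in WT bleomycin libraries, against 101, 88.5 and 90.3 FPKM in WT controls. The KO groups overlapped through the second control, and the WT groups did not overlap. Its log2FC was -0.24 (adjusted p = 0.0822) in KO cells and -0.26 (adjusted p = 0.0623) in WT cells with all libraries, and -0.36 (adjusted p = 0.000459) and -0.26 (adjusted p = 0.00245) without that library.

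**Figure D3:**
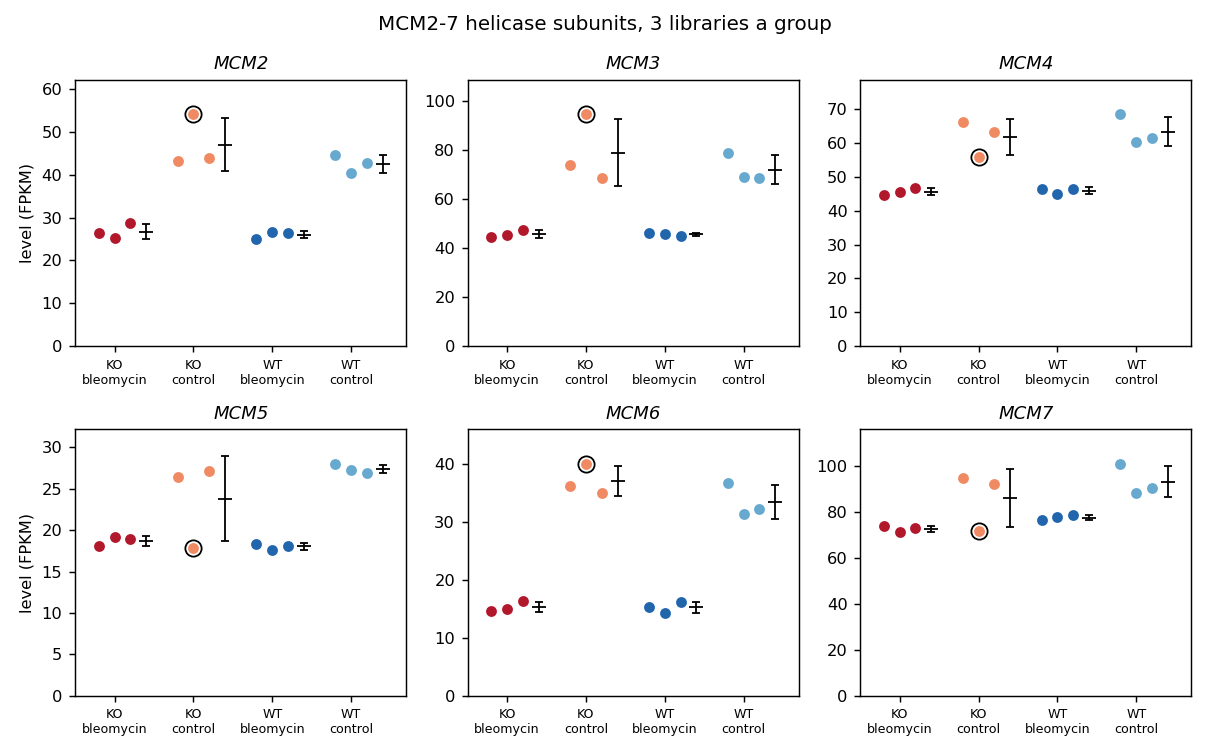
FPKM level of each MCM2-7 subunit gene in the 12 libraries (points), with the group mean ± SD beside them; the black ring marks KO control replicate 2. MCM6 lies at 14.3 to 16.4 FPKM in all bleomycin libraries and at 31.4 to 40.0 FPKM in all controls, and in MCM5 and MCM7 the ringed library lies with the bleomycin libraries.

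The unequal falls changed the make-up of the MCM transcripts. Summed over the 6 subunit genes, the level was 225 ± 5.50 FPKM in KO bleomycin libraries, against 335 ± 5.59 FPKM in KO controls, and 228 ± 1.96 FPKM in WT bleomycin libraries, against 332 ± 22.1 FPKM in WT controls (SD, n = 3 each). MCM6 made up 6.83% of that sum in KO bleomycin libraries, against 11.1% in KO controls, and 6.69% in WT bleomycin libraries, against 10.1% in WT controls. MCM7 made up 32.3% against 25.7% in KO cells and 33.9% against 28.1% in WT cells, again bleomycin against control. These shares compare levels per length within 1 library, and the length used is that of the whole gene model rather than of the transcript expressed. MCMBP, which binds MCM subunits outside the loaded ring, fell too, at log2FC -0.84 (adjusted p = 0.000453) in KO cells, or -0.61 without KO control replicate 2, and -0.64 (adjusted p = 0.00287) in WT cells.

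Among the 6 genes of origin recognition and helicase loading, ORC2 was the one called in both genotypes. ORC2, a core subunit of the origin recognition complex, had 4.52, 5.56 and 4.86 FPKM in KO bleomycin libraries, against 6.59, 7.41 and 6.52 FPKM in KO controls. It had 5.02, 4.75 and 5.25 FPKM in WT bleomycin libraries, against 6.91, 6.84 and 6.66 FPKM in WT controls. The groups did not overlap in either genotype, and ORC2 fell 1.36-fold in KO cells (adjusted p = 0.0027) and 1.35-fold in WT cells (adjusted p = 0.00299). ORC1, the subunit that binds ATP and brings the complex to chromatin, fell in WT cells, at log2FC -0.37 (adjusted p = 0.00871), and was at -0.14 (adjusted p = 0.278) in KO cells. CDT1, the loading factor that is destroyed once S phase starts, fell in WT cells, at log2FC -0.26 (adjusted p = 0.0298), and was at 0.06 (adjusted p = 0.632) in KO cells. ORC6, the smallest subunit, rose in KO cells at log2FC 0.23 (adjusted p = 0.0353) and was at 0.19 (adjusted p = 0.0743) in WT cells. CDC6, which joins ORC to recruit the helicase, was at log2FC -0.01 (adjusted p = 0.942) in KO cells and 0.19 (adjusted p = 0.108) in WT cells. GMNN, which blocks CDT1, was at log2FC -0.20 (adjusted p = 0.435) in KO cells and 0.18 (adjusted p = 0.487) in WT cells. Without KO control replicate 2, the library with the highest GMNN level, its KO value had the other sign, log2FC 0.14 (adjusted p = 0.229). DTL, which directs the destruction of CDT1 by the PCNA-bound ligase, rose in both, at log2FC 0.60 (adjusted p = 0.00677) in KO cells, or 0.39 (adjusted p = 0.000366) without KO control replicate 2, and at 0.63 (adjusted p = 0.00448) in WT cells.

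Helicase activation held changes in both directions within 1 complex. GINS2 and GINS4 are 2 of the 4 subunits of GINS, which holds CDC45 on the MCM ring. GINS4 had 11.2, 10.9 and 9.97 FPKM in KO bleomycin libraries, against 5.68, 7.25 and 6.63 FPKM in KO controls. It had 12.3, 13.1 and 11.2 FPKM in WT bleomycin libraries, against 6.47, 8.27 and 7.41 FPKM in WT controls. Every bleomycin library lay above every control library, and GINS4 rose 1.65-fold in KO cells (adjusted p = 0.00032) and 1.66-fold in WT cells (adjusted p = 0.000237). An antisense gene shares 21.2% of the exonic bases of GINS4 but had 82 counts in all libraries together, against 11150 for GINS4. GINS2 had 5.58, 5.56 and 5.56 FPKM in KO bleomycin libraries, against 8.09, 11.8 and 8.50 FPKM in KO controls. It had 5.13, 5.79 and 5.09 FPKM in WT bleomycin libraries, against 9.76, 8.02 and 7.96 FPKM in WT controls. All bleomycin libraries lay below all controls, and GINS2 fell 1.69-fold in KO cells (adjusted p = 0.000921) and 1.60-fold in WT cells (adjusted p = 0.00188). Its KO log2FC was -0.76 with all libraries and -0.57 without KO control replicate 2. The other 2 subunits were not called, with GINS1 at -0.19 and -0.11 and GINS3 at -0.02 and 0.02 on the log2 scale in KO and WT cells. The KO values were log2FC -0.05 for GINS1 and -0.16 for GINS3 without KO control replicate 2.

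MCM10, which helps the activated helicase begin unwinding, fell slightly in both, at log2FC -0.30 (adjusted p = 0.0181) in KO cells and -0.26 (adjusted p = 0.0326) in WT cells. CDC45, the third component of the active helicase, was at log2FC -0.08 (adjusted p = 0.609) in KO cells and -0.26 (adjusted p = 0.0817) in WT cells, and without KO control replicate 2 at -0.21 (adjusted p = 0.0385) and -0.26 (adjusted p = 0.00372). The kinase that triggers these steps was followed through its activating and catalytic subunits. DBF4, its activating subunit, had 2.95, 2.89 and 3.38 FPKM in KO bleomycin libraries, against 7.80, 4.10 and 7.79 FPKM in KO controls. It had 2.93, 3.51 and 3.73 FPKM in WT bleomycin libraries, against 7.49, 7.28 and 6.49 FPKM in WT controls. The groups did not overlap, with the second KO control lowest among the controls, and DBF4 fell 2.12-fold in KO cells (adjusted p = 0.000843) and 2.08-fold in WT cells (adjusted p = 0.000857). Its KO log2FC was -1.08 with all libraries and -1.34 without KO control replicate 2. DBF4B, the second activating subunit, fell 1.99-fold in KO cells (adjusted p = 8e-05) and 2.41-fold in WT cells (adjusted p = 7.54e-06). CDC7, the catalytic subunit, was at log2FC -0.17 (adjusted p = 0.128) in KO cells and -0.18 (adjusted p = 0.101) in WT cells, or -0.20 (adjusted p = 0.0476) and -0.19 (adjusted p = 0.0315) without KO control replicate 2. The within-library ratio of CDC7 to DBF4 levels was 4.61 in KO bleomycin libraries, against 1.95, 3.75 and 2.20 in the KO controls, of which the second was highest, and 4.23 in WT bleomycin libraries, against 2.29 in WT controls. TICRR, which with TOPBP1 brings CDC45 to the origin, fell at log2FC -0.89 (adjusted p = 2.18e-05) in KO cells and -0.82 (adjusted p = 3.4e-05) in WT cells.

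PCNA, the clamp that tethers polymerases to DNA and also serves repair synthesis, showed the largest rise among the members. PCNA (chromosome 20, 5114953 to 5126626, minus strand, GRCh38) had 447, 498 and 445 FPKM in KO bleomycin libraries, against 259, 277 and 244 FPKM in KO controls. It had 417, 414 and 476 FPKM in WT bleomycin libraries, against 247, 228 and 216 FPKM in WT controls. The lowest bleomycin library, at 414 FPKM, lay far above the highest control, at 277 FPKM. PCNA rose 1.79-fold in KO cells (log2 fold change 0.84, SE 0.09, adjusted p = 1.25e-05) and 1.91-fold in WT cells (log2 fold change 0.93, SE 0.09, adjusted p = 4.01e-06). None of the 5 genes of its loader, the replication factor C pentamer, passed the test as higher. RFC1, the large subunit, fell in both genotypes at log2FC -0.28 (adjusted p = 0.0122) in KO cells and -0.28 (adjusted p = 0.0126) in WT cells. RFC2, RFC3 and RFC5 were not called, with log2 fold changes of 0.17, 0.03 and -0.03 in KO cells and 0.20, 0.07 and -0.25 in WT cells. Without KO control replicate 2 the KO values were log2FC 0.05 for RFC2 and -0.32 (adjusted p = 0.00447) for RFC5, and RFC5 was then also called in WT cells (-0.26, adjusted p = 0.00665). The subunit gene RFC4 fell in KO cells at log2FC -0.44 (adjusted p = 0.0175), or -0.24 (adjusted p = 0.0181) without KO control replicate 2, and was at -0.09 (adjusted p = 0.644) in WT cells. The ratio of PCNA to RFC4 levels was 26.8 in KO bleomycin libraries, against 12.2, 9.16 and 12.5 in the KO controls, and 25.0 in WT bleomycin libraries, against 12.3 in WT controls.

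Of the 6 polymerase and primase genes among the 39, those that changed fell. POLD1, the catalytic subunit of polymerase delta, which makes most of the lagging strand, had 18.5, 16.1 and 17.3 FPKM in KO bleomycin libraries, against 24.5, 35.5 and 24.6 FPKM in KO controls. It had 16.5, 16.5 and 15.2 FPKM in WT bleomycin libraries, against 24.2, 24.7 and 24.8 FPKM in WT controls. No bleomycin library overlapped the controls, and POLD1 fell 1.62-fold in KO cells (adjusted p = 0.000744) and 1.52-fold in WT cells (adjusted p = 0.00181). Its KO log2FC was -0.69 with all libraries and -0.50 without KO control replicate 2. POLA1, the catalytic subunit of the priming polymerase alpha, fell at log2FC -0.38 (adjusted p = 0.00581) in KO cells and -0.26 (adjusted p = 0.0419) in WT cells. POLE, the catalytic subunit of the leading-strand polymerase epsilon, fell in KO cells at log2FC -0.29 (adjusted p = 0.0416) and was at -0.23 (adjusted p = 0.0897) in WT cells. POLD2, the polymerase delta subunit that joins POLD1 to the rest, fell at log2FC -0.65 (adjusted p = 7.03e-05) in KO cells and -0.73 (adjusted p = 1.92e-05) in WT cells. POLD4, its smallest subunit, rose in WT cells at log2FC 1.12 (adjusted p = 0.00273) and was at 0.21 (adjusted p = 0.526) in KO cells, or 0.66 (adjusted p = 0.00238) without KO control replicate 2. The primase genes PRIM1 and PRIM2 and the polymerase alpha subunit gene POLA2 were not called. PRIM2, the large primase subunit, was at log2FC 0.16 in KO cells and 0.18 in WT cells, and POLA2 at -0.39 and 0.15, or -0.07 and 0.15 without KO control replicate 2. PRIM1 was at log2FC -0.14 in KO cells and -0.50 in WT cells, with SEs of 0.28 and 0.28, and without KO control replicate 2 it was at -0.49 (adjusted p = 0.000978) and -0.51 (adjusted p = 0.000169). POLA2 shares 35.1% of its exonic bases with another annotated gene on the same strand, RRM2 20.2% and PRIM1 14.9%. How far the overlap affects the values of these genes was not tested. The partners had 154, 147 and 1 counts in all libraries together, against 5134 for POLA2, 48063 for RRM2 and 4240 for PRIM1. PRIM1 also shares 1.35% of its exonic bases with NACA on the same strand, which had 58557 counts.

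LIG1, the ligase that seals Okazaki fragments, had 21.3, 20.2 and 20.4 FPKM in KO bleomycin libraries, against 14.6, 19.9 and 14.8 FPKM in KO controls. It had 18.8, 20.4 and 19.1 FPKM in WT bleomycin libraries, against 15.3, 14.4 and 14.6 FPKM in WT controls. The WT groups were separate, while the second KO control, at 19.9 FPKM, lay just below the KO bleomycin libraries. LIG1 rose 1.26-fold in KO cells (adjusted p = 0.0236) and 1.33-fold in WT cells (adjusted p = 0.00851). Its KO log2FC was 0.34 with all libraries and 0.49 without KO control replicate 2. FEN1, the nuclease that trims the fragment before ligation, had 85.3, 90.3 and 92.3 FPKM in KO bleomycin libraries, against 102, 177 and 97.3 FPKM in KO controls. It had 85.6, 84.2 and 98.5 FPKM in WT bleomycin libraries, against 105, 91.0 and 94.0 FPKM in WT controls, so the groups were separate in KO cells, with the second control far above the other 2, and overlapped in WT cells. FEN1 fell in KO cells with all libraries, at log2FC -0.48 (adjusted p = 0.0481), and was at -0.15 (adjusted p = 0.136) without KO control replicate 2, and it was at -0.10 (adjusted p = 0.68) in WT cells. RPA1, the large subunit of the protein that coats single-stranded DNA, fell slightly, at -0.25 (adjusted p = 0.0197) in KO cells and -0.30 (adjusted p = 0.00694) in WT cells, while RPA2 (log2FC 0.17 and -0.11) and RPA3 (-0.09 and 0.09), the smaller subunits, were not called. Both KO values had the other sign without KO control replicate 2, at log2FC -0.06 (adjusted p = 0.572) for RPA2 and 0.23 (adjusted p = 0.133) for RPA3.

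In nucleotide supply, the 2 routes to thymidylate moved in opposite directions. TYMS (chromosome 18, 657604 to 673578, plus strand, GRCh38), which makes thymidylate by methylating dUMP, had 30.9, 38.7 and 36.5 FPKM in KO bleomycin libraries, against 22.0, 15.3 and 23.2 FPKM in KO controls. It had 34.7, 36.5 and 35.8 FPKM in WT bleomycin libraries, against 23.7, 19.9 and 20.7 FPKM in WT controls. Bleomycin libraries lay above controls in both genotypes, and TYMS rose 1.76-fold in KO cells (adjusted p = 0.000464) and 1.67-fold in WT cells (adjusted p = 0.000817). Its KO log2FC was 0.82 with all libraries and 0.65 without KO control replicate 2. TYMS shares 39.1% of its exonic bases with ENOSF1 on the opposite strand and 7.41% with the antisense gene TYMSOS. ENOSF1 was at log2FC -0.26 (adjusted p = 0.0561) in KO cells and fell in WT cells at -0.40 (adjusted p = 0.00627), while TYMSOS rose at 1.74 (adjusted p = 1.84e-06) in KO cells and 2.52 (adjusted p = 6.17e-08) in WT cells. The labels do not say whether counting used the strand, and part of the TYMS reads cannot be told apart from those of its neighbours. TK1, which salvages thymidine and had the highest level of the 39 genes in WT controls, had 216, 226 and 215 FPKM in KO bleomycin libraries, against 289.8, 373 and 289 FPKM in KO controls. It had 210.1, 206 and 237 FPKM in WT bleomycin libraries, against 345, 278 and 295 FPKM in WT controls. TK1 fell 1.44-fold in KO cells (adjusted p = 0.00278) and 1.40-fold in WT cells (adjusted p = 0.00443), with no overlap between bleomycin and control libraries. Its KO log2FC was -0.52 with all libraries and -0.39 without KO control replicate 2.

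Ribonucleotide reductase, which makes deoxyribonucleotides, was followed through its large subunit RRM1, its S-phase small subunit RRM2 and the p53-induced small subunit RRM2B, which is not one of the 39. RRM1 was at log2FC -0.10 (adjusted p = 0.507) in KO cells and 0.09 (adjusted p = 0.536) in WT cells, and RRM2 at -0.08 (adjusted p = 0.445) and -0.16 (adjusted p = 0.123). RRM2B had 39.7, 45.6 and 45.2 FPKM in KO bleomycin libraries, against 7.20, 6.22 and 7.09 FPKM in KO controls. It had 51.9, 55.6 and 51.4 FPKM in WT bleomycin libraries, against 5.93, 5.88 and 5.83 FPKM in WT controls. RRM2B rose 6.40-fold in KO cells (adjusted p = 3.14e-10) and 9.06-fold in WT cells (adjusted p = 5.4e-11), with the controls far below. Within a library the level of RRM2B relative to RRM2 was 1.12 in KO bleomycin libraries, against 0.165 in KO controls, and 1.36 in WT bleomycin libraries, against 0.135 in WT controls. The test of the difference between genotypes gave a log2 value of -0.50 (adjusted p = 0.881), and -0.57 (adjusted p = 0.0497) without KO control replicate 2, where 0.0523% of all genes passed.

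**Figure D4:**
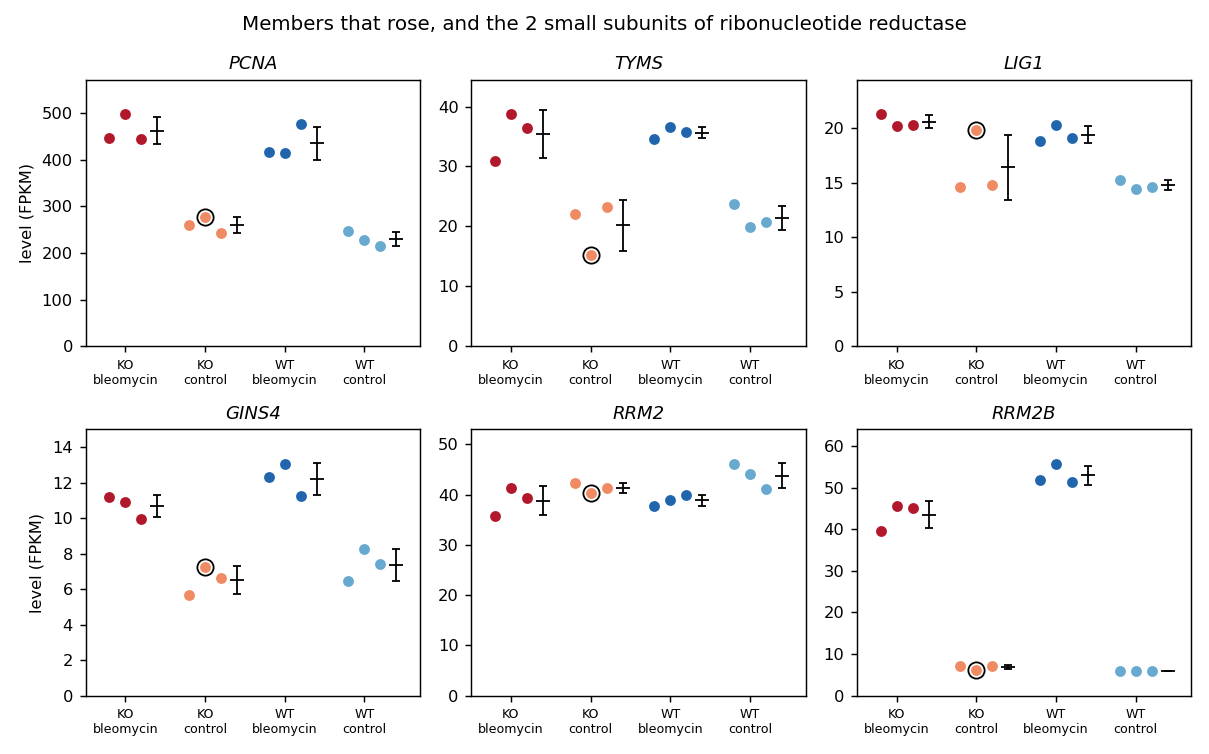
FPKM levels in the 12 libraries (points, with group mean ± SD) of the 4 members that rose in both genotypes, PCNA, TYMS, LIG1 and GINS4, and of RRM2 and RRM2B; the black ring marks KO control replicate 2. RRM2 stays between 35.8 and 46.1 FPKM in all groups, while RRM2B lies at 39.7 FPKM or above in bleomycin libraries and at 7.20 FPKM or below in controls.

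A further 44 replication genes outside the 39, listed with earlier results of these data known, were tested beside them. In KO cells 22 of 44 were called, 3 higher and 19 lower, with a median log2 fold change of -0.26, and in WT cells 17, 4 higher and 13 lower, with a median of -0.19. All tested genes were called at 43.2% in KO cells and 43.5% in WT cells, so the 44 lay a little above that share in KO cells, at 50%, and below it in WT cells, at 38.6%. Lower calls made up 43.2% of the 44 in KO cells and 29.5% in WT cells, against 20.7% and 19.6% of all tested genes. Higher calls made up 6.82% and 9.09%, against 22.5% and 23.9%. Without KO control replicate 2 the count in KO cells was 29 (5 higher, 24 lower), or 65.9%, where 48.4% of all tested genes were called. In WT cells it was 31 (8 higher, 23 lower), or 70.5%, where 56.6% of all tested genes were called. Besides RRM2B, DTL and POLD4, the raised genes included RNASEH2B, a subunit of the nuclease that removes ribonucleotides from DNA, at log2FC 0.28 (adjusted p = 0.0349) in KO cells and 0.38 (adjusted p = 0.00705) in WT cells.

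Summed over all 39 genes as FPKM, the replication transcripts differed little between treatments. Many genes fell beside the rise of PCNA, the most abundant of the 39 in bleomycin and second to TK1 in controls. The sum was 1596 ± 51.8 FPKM in KO bleomycin libraries, against 1665 ± 125 FPKM in KO controls, and 1573 ± 83.7 FPKM in WT bleomycin libraries, against 1581 ± 115 FPKM in WT controls (SD, n = 3 each). These groups overlapped in both genotypes. The ratio of bleomycin to control sums was 0.959 in KO cells and 0.995 in WT cells. Summed as CPM (counts scaled to library size and not to gene length), the ratio was lower in both genotypes, as given further on. The genes of clamp and loader, of which PCNA is the most abundant, summed to 571 FPKM in KO bleomycin libraries, against 374 FPKM in KO controls, and to 548 FPKM in WT bleomycin libraries, against 343 FPKM in WT controls. Polymerase and primase genes summed to 52.6 against 69.1 FPKM in KO cells and to 52.1 against 65.6 FPKM in WT cells, bleomycin against control. In WT controls the levels ran from 306 ± 34.9 FPKM for TK1 and 230 ± 15.6 FPKM for PCNA, through 96.7 ± 7.42 FPKM for FEN1 and 93.2 ± 6.68 FPKM for MCM7, whose ranges overlapped, to 4.25 ± 0.386 FPKM for GINS3 and 3.72 ± 0.318 FPKM for POLA2.

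No member differed between KO and WT cells at the threshold under either treatment. In bleomycin 0 of 39 differed between KO and WT cells, where 0.0479% of all genes did, and the log2 fold changes of KO over WT ran from -0.19 for GINS4 to 0.21 for CDT1. At an unadjusted p below 0.05 there was 1, CDT1, with a 95% interval of 0.01 to 0.40. In control medium 0 of 39 differed, where 0.168% of all genes did, with log2 fold changes from -0.40 for RFC5 to 0.50 for GMNN. Here 3 had an unadjusted p below 0.05, GMNN, RFC4 and ORC1. Without KO control replicate 2 the range narrowed to -0.26 for GINS4 and 0.17 for GMNN, again with 0 of 39 called where 1.02% of all genes were. In bleomycin, 0 of 39 were called without it, where 1.71% of all genes were. DESeq2 also called 0 members in either comparison. Without the filter on low counts GMNN was called higher in KO than in WT controls (log2FC 0.47, adjusted p = 0.0216), a gene whose level in KO control replicate 2 was 1.80 times that of the other KO controls.

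The bleomycin responses of the 2 genotypes, which share no library, were close gene by gene. Pearson's r between the log2 fold changes over the 39 genes was 0.896, given as a description across genes that are not independent. It was 0.968 without KO control replicate 2, and 0.821 without KO control replicate 1 or replicate 3. The interaction, the response in KO minus that in WT cells, was called for 0 of 39 members, as for 0% of all genes. CDT1 alone had an unadjusted p below 0.05, and DESeq2 called 0 members. MCM6 had an interaction of -0.14 (95% interval -0.42 to 0.14) and PCNA of -0.09 (95% interval -0.38 to 0.20). With 3 libraries a group, differences in response within these intervals were not excluded. The values ran from -0.55 for POLA2 to 0.36 for PRIM1, and from -0.22 to 0.28 without KO control replicate 2.

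**Figure D5:**
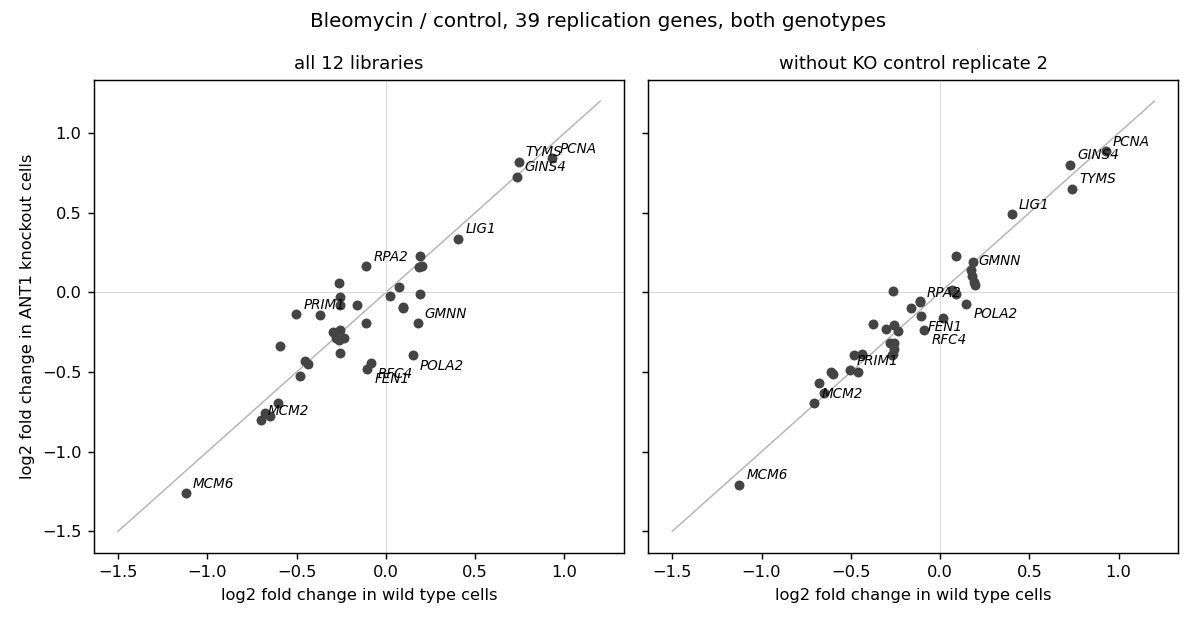
Log2 fold change of bleomycin over control in KO cells (vertical) against that in WT cells (horizontal) for the 39 replication genes, with all 12 libraries (left) and without KO control replicate 2 (right); the line marks equal responses. The genes farthest from the line on the left, POLA2, FEN1, GMNN, RFC4 and PRIM1, lie closer to it on the right, where r is 0.968 against 0.896.

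Some calls near the threshold did not hold when a library was left out. That library could also be of the other genotype, since all groups share 1 estimate of the spread. In KO cells 9 of the 21 calls were lost in at least 1 such fit. MCM5 lost its call on leaving out any library but KO control replicate 2 (adjusted p 0.0582 to 0.171), and FEN1 on leaving out any but KO control replicates 1 and 3 (0.0565 to 0.136). ORC6 was lost without any KO library but control replicate 2, and without WT bleomycin replicate 1 or WT control replicates 2 or 3 (0.0505 to 0.131). POLE was lost without any KO bleomycin library, KO control replicate 3, WT bleomycin replicates 1 or 2, or WT control replicate 2 (0.0505 to 0.136). LIG1 and MCM10 were lost without KO bleomycin replicate 1 or KO control replicates 1 or 3 (0.0765 to 0.0914 and 0.0514 to 0.0786), and RFC1 without KO bleomycin replicate 1 or KO control replicate 1 (0.0536 and 0.0544). RFC4 and RPA1 were lost without KO bleomycin replicates 2 or 3 (0.0528 to 0.0562 and 0.0517 to 0.0708). In WT cells 4 of the 19 calls were lost. RFC1 was lost without WT bleomycin replicate 2 (0.0605), MCM10 without any WT library but control replicate 2 (0.0646 to 0.0943), CDT1 without any but bleomycin replicate 3 (0.0515 to 0.133), and POLA1 without any WT bleomycin library, WT control replicate 1 or KO bleomycin replicate 2 (0.0525 to 0.162). The direction was kept in every case.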

How the data were processed

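Poly(A) RNA of 12 libraries was sequenced. The deposited table holds raw read counts and FPKM per gene, which the authors deposited. The submitters' processing notes name HISAT2 2.0.5 and featureCounts 1.5.0-p3. The labels name both a directional and a non-directional library protocol without saying which was used. FPKM was taken as deposited for levels, and its gene length covers all annotated exons. All 39 members matched GENCODE v29 (GRCh38) by identifier and coordinates.

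Counts were tested with edgeR 4.0.16 (R 4.3.3): low-count filter, TMM scaling, a quasi-likelihood fit of 4 group means, and Benjamini-Hochberg adjustment over 16702 genes at 0.05. SEs were derived from the F statistic. Log2 fold changes are bleomycin over control or KO over WT. The steps were checked on simulated counts. Alternatives were DESeq2 1.42.0, median-of-ratios scaling, no low-count filter, a replicate block, the compared groups alone, limma 3.58.1 on log2(FPKM + 1), and leaving out each library. The members and the lists were chosen with earlier results of these data known. All members are named. Of 44 other replication genes, the 4 with the smallest adjusted p in each direction and genotype are named, with RRM2B. CDC7, the overlap partners of TYMS, CD14, COL1A1, CCNA2, CDK1 and CCNE1 were added after their values were seen. Promoter windows came from RefSeq (GRCh38.p14), and the depth of 15753944 to 21923695 counts sets the counting error. P-values measure the spread between replicates that the labels call biological.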

Additional observations from a re-analysis of the deposited data

How the results depend on the processing

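The counts of called members, the ratios of summed levels and the correlation of the 2 responses were compared with 131 alternative values. Of these, 123 stayed within the limit set for that kind of result and 8 moved beyond it, among them the bleomycin over control ratios as CPM. Of 3471 single-gene values under an alternative, 3358 kept their side of the threshold, 25 gained a call and 88 lost one. None with a call in the main or the alternative fit changed sign. The sign of values called in neither fit was not checked in this count, and some of these changed sign. In every alternative 12 of the 21 calls in KO cells held (MCM2, MCM3, MCM4, MCM6, ORC2, GINS2, GINS4, PCNA, POLA1, POLD1, TYMS and TK1), as did 15 of the 19 in WT cells. With only the KO groups in the fit, 12 members were called, 3 higher and 9 lower, where 31.9% of all genes were called. The same choice gave 26 in WT cells, 6 higher and 20 lower, where 56.0% of all genes were called, and the cause was not tested. Leaving out 1 library at a time gave 14 to 24 calls in KO cells, 15 to 27 in WT cells, and 0 for KO against WT in bleomycin, for KO against WT in control medium and for the interaction. Without the low-count filter, 1 member, GMNN, was called higher in KO than in WT controls, and the cause was not tested. The ratio of summed levels, bleomycin over control, was 0.885 in KO cells and 0.913 in WT cells as CPM. CPM weights genes by length and was TMM-scaled, while FPKM was used as deposited. As FPKM, the ratio over the left-out libraries ranged from 0.931 to 1.00 in KO cells and from 0.964 to 1.04 in WT cells. The ratio of KO to WT sums ranged from 0.997 to 1.05 in bleomycin and from 1.01 to 1.10 in control medium. The correlation of the 2 responses ranged from 0.821 to 0.968 over the left-out libraries.

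No label says that the replicate numbers pair the samples. Deviations of same-numbered libraries correlated at -0.128 to 0.109, and 1 of 12 libraries correlated best with its own number. With so few libraries a group these values cannot settle whether samples were paired. With the replicate block 18 members were called in KO cells and 17 in WT cells, 0 for each KO against WT comparison and 0 for the interaction, and the correlation of the 2 responses was 0.896.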

Other observations

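Of the genes below, CCNA2, CDK1 and CCNE1 were named after their values were seen. MKI67, a marker of cycling cells, fell with bleomycin at a log2 fold change of -1.27 (adjusted p = 0.000982) in KO cells, or -1.58 (adjusted p = 2.53e-12) without KO control replicate 2, and -1.54 (adjusted p = 0.000219) in WT cells in edgeR. CCNA2, the cyclin of S phase and G2, fell at -1.52 (adjusted p = 3.22e-07) in KO cells and -1.38 (adjusted p = 6.23e-07) in WT cells, more than any of the 39 replication genes. CDK1, the kinase of mitotic entry, fell at -0.83 in KO cells and -0.77 in WT cells. CCNE1, the cyclin that starts S phase, rose at 0.57 (adjusted p = 0.00687) in KO cells and 0.49 (adjusted p = 0.0138) in WT cells. CDKN1A, the p53-induced inhibitor that also binds PCNA, rose at 4.87 in KO cells and 5.68 in WT cells.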
